A study of Mus musculus with 8 samples.

Results

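The 10 genes described here encode the network-forming and basement membrane collagens of the cornea, namely the 6 chains of collagen IV (Col4a1 to Col4a6), both chains of collagen VIII (Col8a1 and Col8a2) and the multiplexins Col15a1 and Col18a1. They were chosen by family and matched by symbol to the deposited table, which names 23420 genes, and all 10 were found there with reads. The study compared wild type mouse limbal rim with the central corneal button to find genes that differ between the stem cell niche and the rest of the cornea. Both groups were dissected from the eyes of 8-week-old C57BL/6J mice with no treatment, rims and buttons were each pooled before RNA extraction, and libraries were made from total RNA. The labels list 4 numbered samples for the limbus and 4 for the cornea, but the table holds 1 comparison of 2 libraries, 1 per tissue, with no value per numbered sample. There was therefore no replicate check on any difference below, no test was possible, and every interval is an exact 95% interval that covers counting error only.

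Basement membranes are thin sheets of matrix under epithelia and around vessels, muscle fibers and nerves. Collagen IV chains join in threes, and the trimers are found as the widespread α1α1α2 form and as the more restricted α3α4α5 and α5α5α6 forms, which link into a network with laminins, nidogens and perlecan. Collagen VIII forms the hexagonal lattice of Descemet's membrane, the thick basement membrane laid down by the corneal endothelium. Collagens XV and XVIII are proteoglycans of basement membrane zones, and the C-terminal end of collagen XVIII is released as endostatin.

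The collagen IV genes lie in the mouse genome (GRCm38) as 3 head-to-head pairs, each pair read outward from a shared stretch of DNA, and these stretches are shown because the pairs turned out to differ in how alike their members were. Col4a1 (chromosome 8, 11198423 to 11312826, minus strand) and Col4a2 (chromosome 8, 11312805 to 11449287, plus strand) overlapped by 22 bases in their first exons. Col4a4 (chromosome 1, 82448423 to 82586849, minus strand) and Col4a3 (chromosome 1, 82586921 to 82722059, plus strand) left 71 bases between their starts. Col4a6 (chromosome X, 141165403 to 141474076, minus strand) and Col4a5 (chromosome X, 141475385 to 141689234, plus strand) started 1308 bases apart. Sequences are from GRCm38, with the upstream windows of Col4a6 and Col4a5 as RefSeq places them, each written 5′ to 3′ on the strand given. Capitals mark GGGCGG, its complement, or CCAAT on either strand, and the stretch between Col4a4 and Col4a3 holds none of these.
Overlap of the Col4a1 and Col4a2 first exons (chr8:11312805-11312826, plus strand): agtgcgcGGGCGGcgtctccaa
Between the starts of Col4a4 and Col4a3 (chr1:82586850-82586920, plus strand): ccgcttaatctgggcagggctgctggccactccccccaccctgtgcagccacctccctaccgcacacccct
Upstream of Col4a6 (chrX:141474077-141474326, minus strand): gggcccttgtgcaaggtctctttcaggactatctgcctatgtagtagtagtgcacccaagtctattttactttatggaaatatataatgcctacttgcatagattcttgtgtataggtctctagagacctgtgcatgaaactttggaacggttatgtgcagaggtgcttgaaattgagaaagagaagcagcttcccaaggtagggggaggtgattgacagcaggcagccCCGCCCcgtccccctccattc
Upstream of Col4a5 (chrX:141475169-141475384, plus strand): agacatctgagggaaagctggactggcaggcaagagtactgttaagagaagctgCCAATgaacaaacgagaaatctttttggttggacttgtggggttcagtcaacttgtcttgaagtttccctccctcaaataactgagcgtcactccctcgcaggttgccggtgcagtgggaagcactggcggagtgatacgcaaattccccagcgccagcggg

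The stretch shared by Col4a1 and Col4a2 was 72.7% G and C, and that between Col4a4 and Col4a3 was 69.0%. The Col4a6 and Col4a5 stretches were at 47.6% and 52.3%. RefSeq windows of 250 bases before to 50 bases after a start were matched for 9 of the 10 members, giving 10 windows because Col18a1 has a pair of them. Searched on both strands, GGGCGG was present in 7 of the 10 windows against 35.7% of the 32851 windows of all genes, CCAAT in 4 against 37.4%, and TATAAA in 0 against 13.6%. The 10 windows are not separate, since those of Col4a1 and Col4a2 overlap and share the GGGCGG shown above. They ranged from 48.3% G and C for Col4a6 to 74.0% for Col4a1, beside a median of 52.7% for the windows of all genes. These matches describe letters in the windows and not sites in use.

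Depth was 26104317 reads over the named genes for the corneal button and 21182025 for the limbal rim. The libraries matched their labels, since Krt12, the keratin of corneal epithelium, had 1137735 corneal and 233324 limbal reads, and Krt15, a keratin of limbal basal cells, had 37738 and 353826. Whole reads per library were recovered from the mean in the table with the help of its comparison columns. Read numbers below are followed by normalized reads where the libraries are compared, which are reads divided by the size factor of the library (1.03 for the cornea and 0.97 for the limbus). A ratio is always limbus over cornea of normalized reads, and a log2 ratio above 0 is higher in the limbus. In these bulk libraries more cells of a type and more RNA per cell cannot be told apart.

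All 10 collagens had more normalized reads in the limbus than in the cornea, and for all 10 the interval of the log2 ratio lay above 0. The log2 ratios ran from 0.60 for Col4a5 to 6.16 for Col15a1, with a median of 2.33 beside -0.04 for the 13932 genes whose mean was 10 or more normalized reads. A ratio of at least 2 towards the limbus was reached by 8 of the 10, against 18.0% of those genes. Towards the cornea it was reached by 0 of the 10, against 8.88%. At a ratio of at least 1.5 the count was 10 of 10, against 23.8%. The threshold ran between Col4a4 at 1.07 and Col4a3 at 0.77, and the interval of Col4a4 (0.76 to 1.39) held the log2 value of 1 that a ratio of 2 gives.

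**Figure D1:**
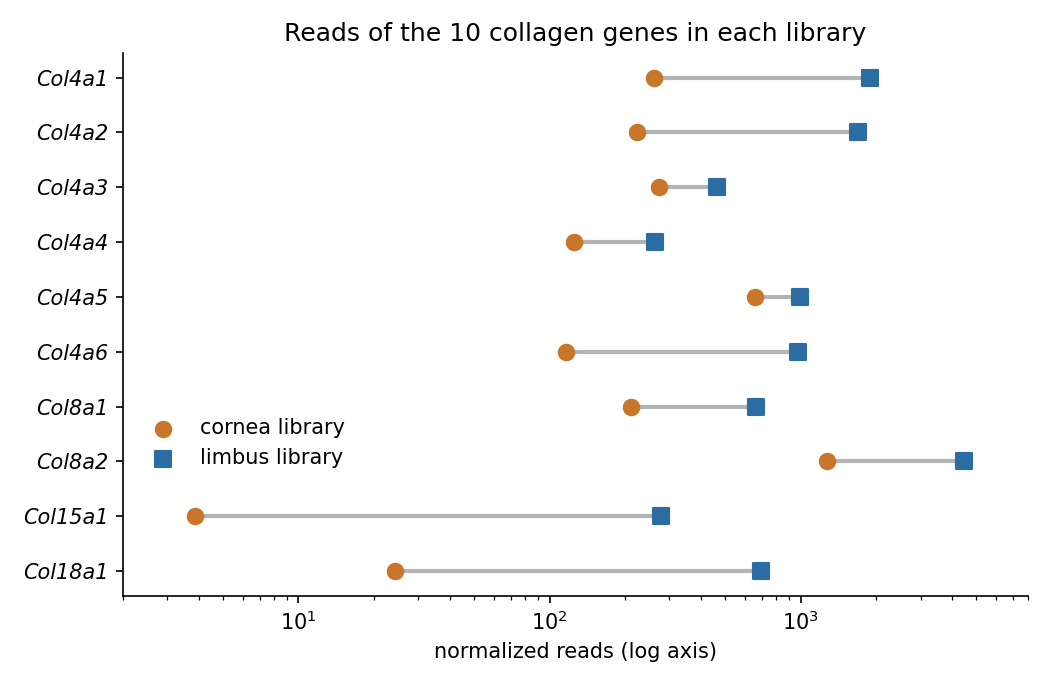
Normalized reads (log axis) of each of the 10 collagens in the cornea and in the limbus library, 1 point per library. The limbus point lies to the right of the cornea point for all 10, with the widest gap for Col15a1 (3.87 and 277).

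Together the 10 genes held 3171 corneal and 12392 limbal normalized reads, which gave a log2 ratio of 1.97 (interval 1.91 to 2.02). The 6 collagen IV chains made up 1712 of 3278 collagen reads in the cornea and 6078 of 11987 in the limbus. Collagen VIII gave 1537 and 4966 reads. The multiplexins gave 29 and 943. The log2 ratios of the summed reads were 1.92 (1.85 to 2.0) for collagen IV and 1.79 (1.70 to 1.87) for collagen VIII, whose intervals overlapped, and 5.12 (4.59 to 5.71) for the multiplexins, which stood above both.

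Col4a1 and Col4a2 encode the chains of the widespread collagen IV trimer, and mutations in either cause disease of small vessels and of the anterior eye. Col4a1 had 269 corneal and 1824 limbal reads, or 260 and 1886 normalized reads, a ratio of 7.25 (log2 2.86, interval 2.67 to 3.05). Col4a2 had 231 and 1639 reads, or 223 and 1694 normalized reads, a ratio of 7.58 (log2 2.92, 2.72 to 3.13). Their log2 ratios differed by 0.07 and the intervals overlapped. Within a library the pair also stayed close, as Col4a1 had 1.16 reads for each read of Col4a2 in the cornea (0.97 to 1.39) and 1.11 in the limbus (1.04 to 1.19). Per kilobase of exon the same ratios were 1.03 (0.86 to 1.24) and 0.99 (0.92 to 1.06).

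Col4a3, Col4a4 and Col4a5 encode the chains of the trimer that is lost in Alport syndrome. Col4a3, whose chain holds the Goodpasture antigen, had 283 corneal and 451 limbal reads, or 274 and 466 normalized reads, a ratio of 1.70 (log2 0.77, 0.55 to 0.99). Its neighbour Col4a4 had 129 and 254 reads, or 125 and 263 normalized reads, a ratio of 2.10 (log2 1.07, 0.76 to 1.39). This pair also differed alike between the libraries, since the log2 ratios differed by 0.31 and their intervals overlapped. Col4a3 had 2.19 reads for each read of Col4a4 in the cornea (1.78 to 2.72) and 1.78 in the limbus (1.52 to 2.08), and per kilobase of exon 2.34 and 1.89.

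Col4a5, on the X chromosome, had 680 corneal and 963 limbal reads, or 658 and 995 normalized reads, a ratio of 1.51 (log2 0.60, 0.45 to 0.74). It was the smallest difference of the 10 collagens. Col4a6, which is read away from the same stretch of DNA on the other strand and whose chain joins only the α5α5α6 trimer, had 120 and 947 reads, or 116 and 979 normalized reads, a ratio of 8.43 (log2 3.08, 2.80 to 3.36). The change of Col4a6 exceeded that of Col4a5 by 2.48 on the log2 scale, or 5.57-fold, and the intervals did not overlap. Seen within each library, Col4a5 had 5.67 reads for each read of Col4a6 in the cornea (4.66 to 6.94) and 1.02 in the limbus (0.93 to 1.11). Per kilobase of exon the ratios were 6.73 (5.53 to 8.24) and 1.21 (1.10 to 1.32). Col4a6 stood with Col4a1 and Col4a2 in the size of its difference, as the intervals of these 3 overlapped each other and no other member's.

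**Figure D2:**
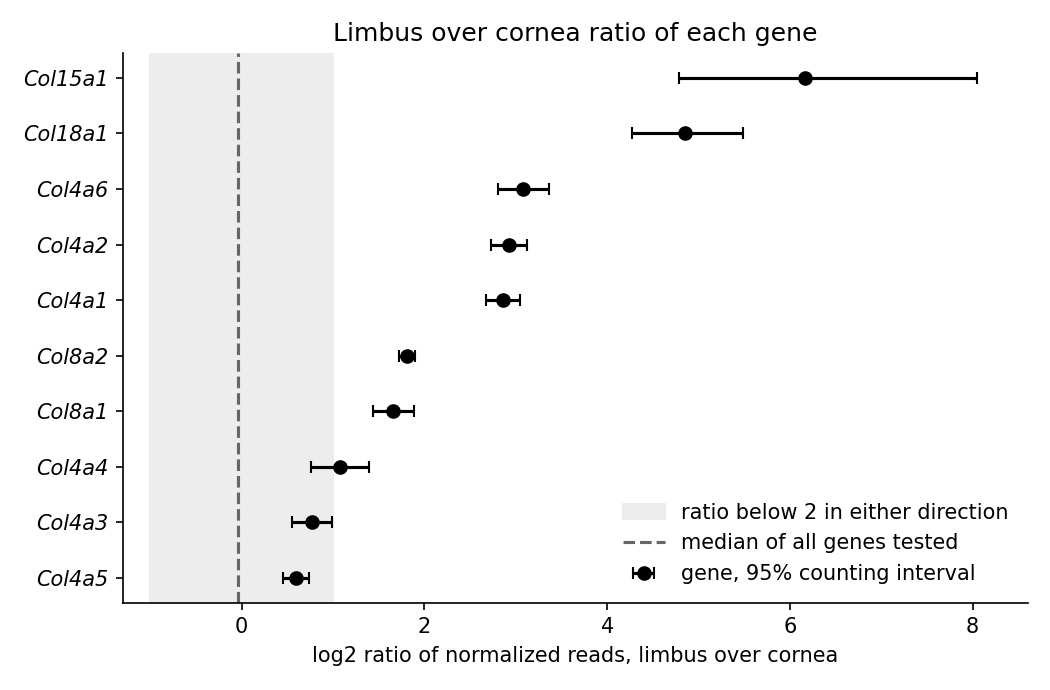
Log2 ratio of limbus over cornea for each collagen, with exact 95% counting intervals as bars, beside the median of all 13932 genes (-0.04). The X-linked pair Col4a5 (0.60) and Col4a6 (3.08) stands apart from each other, while the other 2 head-to-head pairs lie close together.

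The makeup of collagen IV reads therefore differed between the libraries, a grouping that was added after the values were seen. Col4a5 was the leading chain of the cornea with 39.7% of the collagen IV reads (37.4% to 42.1%), against 15.8% in the limbus (14.9% to 16.8%). Col4a1 and Col4a2 together took 29.2% in the cornea (27.1% to 31.4%) and 57.0% in the limbus (55.7% to 58.2%). Col4a3, Col4a4 and Col4a5 together took 63.8% (61.5% to 66.1%) and 27.4% (26.3% to 28.6%). So the share of Col4a3, Col4a4 and Col4a5 was larger in the cornea and that of Col4a1 with Col4a2 larger in the limbus, beyond counting error, although each of these chains had more normalized reads in the limbus. Col4a6 alone took 7.01% (5.85% to 8.32%) and 15.6% (14.7% to 16.5%). With reads divided by exon length the shares were 31.1% and 59.8% for Col4a1 with Col4a2, 62.2% and 25.8% for Col4a3 to Col4a5, and 6.61% and 14.4% for Col4a6. These are shares of reads, and the share of assembled trimers was not measured.

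**Figure D3:**
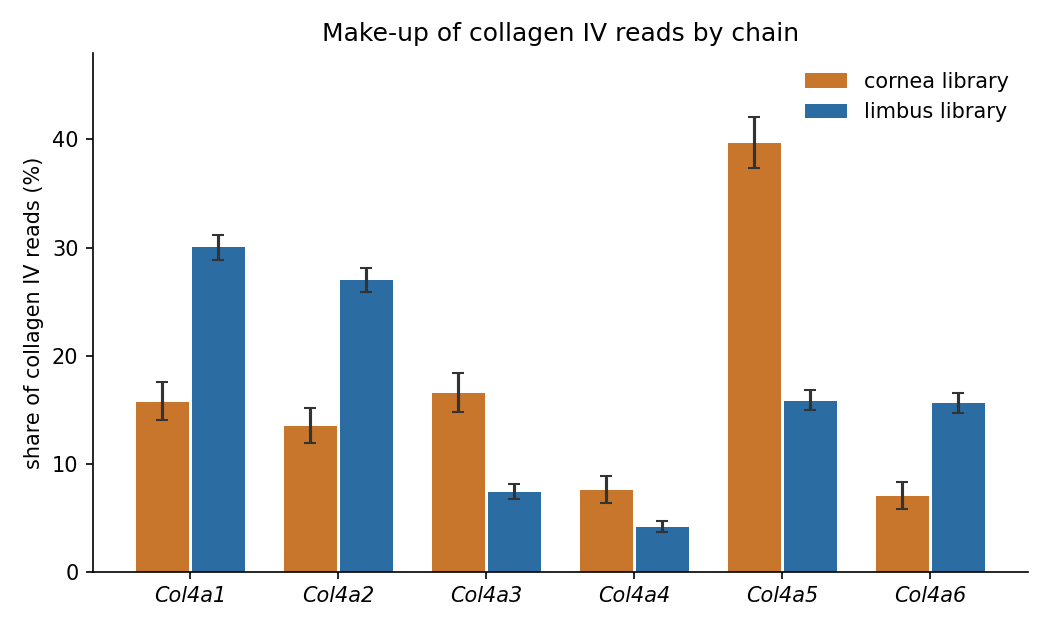
Percent of all collagen IV reads taken by each of the 6 chains in the cornea (1712 reads) and the limbus (6078 reads), with exact 95% binomial intervals as bars. Col4a5 leads in the cornea at 39.7%, and Col4a1 at 30.0% and Col4a2 at 27.0% lead in the limbus.

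Col8a2 had the most reads of the 10 genes in both libraries. This gene, mutated in an early-onset form of Fuchs endothelial dystrophy, had 1319 corneal and 4323 limbal reads, or 1276 and 4469 normalized reads, a ratio of 3.50 (log2 1.81, 1.72 to 1.90). Col8a1, the other chain, had 218 and 643 reads, or 211 and 665 normalized reads, a ratio of 3.15 (log2 1.66, 1.43 to 1.88). The log2 ratios differed by 0.15 with overlapping intervals. Within each library Col8a2 had 6.05 reads for each read of Col8a1 in the cornea (5.24 to 7.02) and 6.72 in the limbus (6.19 to 7.32), and per kilobase of exon 10.6 and 11.7. Col8a1 lies on chromosome 16 (57624258 to 57754737, minus strand) and Col8a2 on chromosome 4 (126286793 to 126314330, plus strand), so these chains do not share a start, and the intervals of their proportion overlapped.

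The corneal endothelium, which lays down the collagen VIII lattice, had 10 markers in the list used, and all 10 had a mean of at least 10. A ratio of at least 2 towards the limbus was reached by 5 of them, beside 18.0% of all genes. Towards the cornea it was reached by 0, beside 8.88%, and the median log2 ratio was 1.13. Their summed normalized reads were 10203 (cornea) and 12807 (limbus), a ratio of 1.26. Slc4a11, a membrane transporter of this layer, had 843 and 1226 reads (log2 0.64). The collagen VIII ratios were thus larger than that of the summed markers, and the part of this cell layer in them was not tested.

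The multiplexins differed most. Col18a1 (chromosome 10, 77052178 to 77166548, minus strand), mutated in Knobloch syndrome of the eye, had 25 corneal and 675 limbal reads, or 24.2 and 698 normalized reads, a ratio of 28.9 (19.4 to 44.9). Col15a1 (chromosome 4, 47208161 to 47313167, plus strand), found in the basement membrane zones of muscle and small vessels, had 4 and 268 reads, or 3.87 and 277 normalized reads, a ratio of 71.6 (27.6 to 265). With 4 corneal reads the Col15a1 ratio is known only to within that wide interval, which overlapped that of Col18a1. Their log2 ratios were 6.16 (4.79 to 8.05) for Col15a1 and 4.85 (4.28 to 5.49) for Col18a1, both above the interval of every other member. Within each library Col18a1 had 6.25 reads for each read of Col15a1 in the cornea (2.16 to 24.7) and 2.52 in the limbus (2.18 to 2.91), a comparison added after the values were seen. Among the 13932 genes, ranked from the highest ratio towards the limbus, Col15a1 was at place 58 and Col18a1 at place 167. The table gives 1 value for Col18a1, so its transcripts from the 2 start sites cannot be told apart.

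Compared as reads per kilobase of exon, the order of levels in the cornea began with Col8a2 at 284, Col4a5 at 97.9, Col4a1 at 34.9 and Col4a2 at 33.8. It went on with Col4a3 at 27.5, Col8a1 at 26.9, Col4a6 at 14.6 and Col4a4 at 11.8, and ended with Col18a1 at 3.44 and Col15a1 at 0.61. Neighbours that did not differ beyond counting error were Col4a1 and Col4a2, Col4a3 and Col8a1, and Col4a6 and Col4a4. In the limbus the order began with Col8a2 at 996, Col4a2 at 256, Col4a1 at 253, Col4a5 at 148 and Col4a6 at 123. Behind them came Col18a1 at 99.4, Col8a1 at 84.9, Col4a3 at 46.8, Col15a1 at 43.6 and Col4a4 at 24.7. Here Col4a2 and Col4a1, and Col4a3 and Col15a1, were within counting error of each other. With coding length in place of exon length the order moved, most for Col8a1, whose exons hold 7833 bases of which 2232 are coding. Per kilobase of coding sequence Col8a1 was at 94.5 in the cornea, above Col4a3 at 54.7 and at place 3 instead of 6, and at 298 in the limbus, at place 4 instead of 7. By either length Col8a2 was first in both libraries, and per kilobase of exon Col15a1 moved only from place 10 to place 9 in spite of its ratio.

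Collagens are built on Gly-X-Y repeats. In the annotated coding sequences these repeats differed between the families, by which the genes were chosen. Counting runs of at least 5 such triplets, the collagen IV chains of 1669 to 1707 residues held 22 to 27 runs that covered 74.9% to 78.8% of the residues. Col8a1 and Col8a2 were shorter at 744 and 699 residues, with 9 runs each over 58.9% and 63.5%. Col15a1 and Col18a1, at 1367 and 1774 residues, had 11 and 14 runs over 25.0% and 28.6%. The chains least covered by repeats were thus those with the highest limbal ratios, a description of 2 genes. This order did not hold throughout the other members. Col8a1 and Col8a2, less covered than collagen IV, had log2 ratios of 1.66 and 1.81. These were below those of Col4a1 (2.86), Col4a2 (2.92) and Col4a6 (3.08) and above those of Col4a3 (0.77), Col4a4 (1.07) and Col4a5 (0.60).

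Some exons of the members lie within the spans of other genes, introns of those genes included. Col18a1 overlaps Slc19a1, a folate transporter on the opposite strand, which had 87 corneal and 202 limbal reads. The spans of antisense or noncoding genes cover exon bases of Col4a1 (Gm15418), Col4a2 (Gm15419), Col4a3 (C430014B12Rik) and Col15a1 (Gm12426). Whether exons of these genes or of Slc19a1 lie on exons of the members was not examined. Whether the counting used strand was not given in the sources used here. If it did not, reads from any exon bases that are shared cannot be told apart from those of the members.

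The genes that build, bind and cut these collagens, together with other collagens, were described in 6 lists of 87 genes. Of these, 79 had a mean of at least 10. A ratio of at least 2 towards the limbus was reached by 35 of the 79, beside 18.0% of all genes. The 35 include 7 fibrillar collagens and 7 genes of the collagen VI, fibril-associated and transmembrane list. The collagen IV partners of the basement membrane, the laminins, nidogens, perlecan and agrin, had 5 of 15 at that ratio, 1 of 15 at a ratio of at least 2 towards the cornea, and a median log2 ratio of 0.15. This median was below that of the 10 collagens and near that of all genes. In what follows a pair of read numbers is given as cornea and limbus, and the value in parentheses behind it is the log2 ratio. Lama4, the laminin chain of vessel walls, had 6 corneal and 422 limbal reads (log2 6.23), and nidogen-2 (Nid2) had 10 and 216 (4.53). Lamb1, the 1 gene of this list past the ratio towards the cornea, had 4677 and 1978 reads (-1.15), and with libraries scaled by total reads its log2 ratio of -0.94 no longer reached it. Lama3, a chain of the epithelial laminin of hemidesmosomes, had 5032 and 2484 (-0.92). Unlike the members, the list therefore held genes on both sides.

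Among the 18 enzymes and chaperones of collagen processing and crosslinking, 7 reached a ratio of 2 towards the limbus and 1 towards the cornea, with a median log2 ratio of 0.82. The prolyl 3-hydroxylases P3h3 and P3h1 had 219 and 814 reads (1.99) and 72 and 254 reads (1.91) in the cornea and limbus. Colgalt2, which adds galactose to hydroxylysine, had 352 and 95 reads (-1.79), and the lysyl hydroxylase Plod1 had 873 and 610 (-0.42). Of the proteases, 5 of the 11 with a mean of at least 10 reached the ratio towards the limbus and 0 towards the cornea, with a median of 0.90. Stromelysin-1 (Mmp3) had 26 corneal and 8779 limbal reads (8.50), and the lysosomal proteases cathepsin K (Ctsk) and cathepsin L (Ctsl) had 234 and 1075 (2.30) and 31750 and 19697 (-0.59).

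The list of receptors had 4 of 9 at a ratio of 2 towards the limbus and 1 of 9 towards the cornea, with a median log2 ratio of 0.95. The integrin α1 gene Itga1 had 44 and 91 reads (1.14), while Itga2, the other classical collagen-binding integrin chain, had 308 and 83 (-1.80). Their shared β1 chain gene Itgb1 had 5303 and 3903 reads (-0.35). Cd93, a glycoprotein of vessel endothelium, had 3 corneal and 220 limbal reads, and its ratio of 78.4 on 3 corneal reads had a lower counting bound of 26.5. The integrin chains thus stood on either side of 0.

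**Figure D4:**
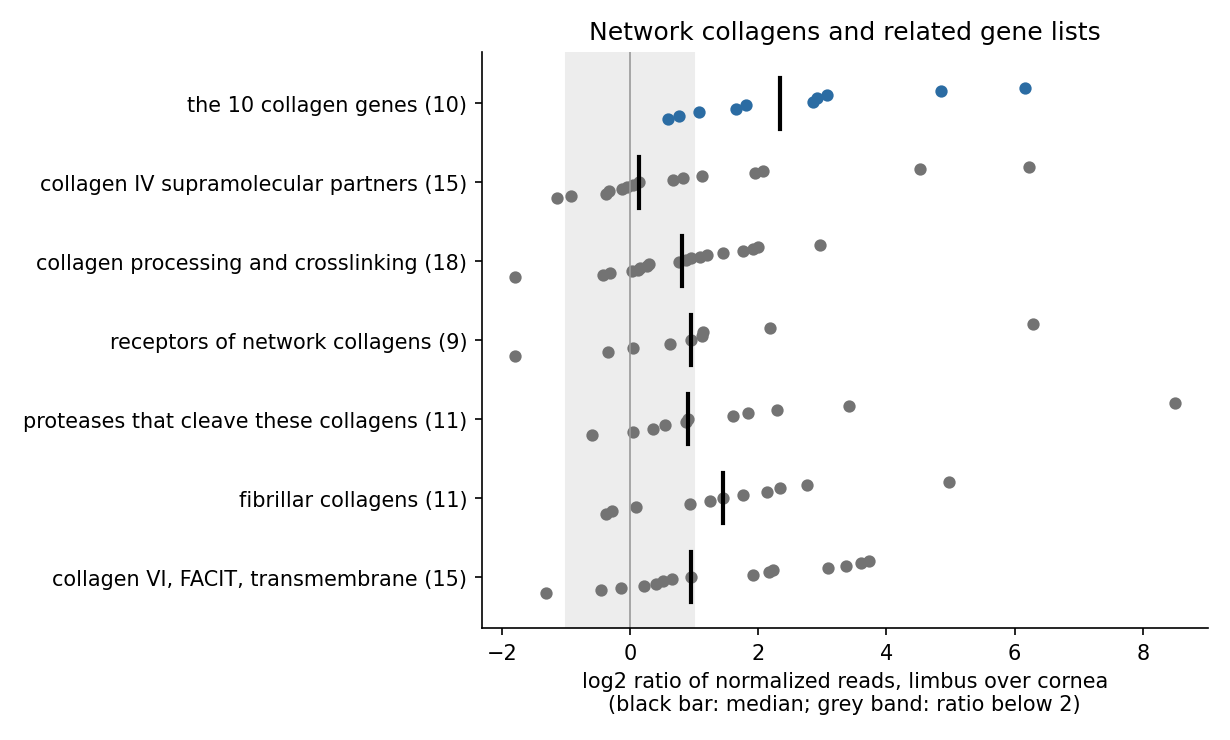
Log2 ratio of limbus over cornea for each gene of the 6 lists, other collagens included, with a mean of at least 10, beside the 10 collagens. The median of each group is a line, and libraries at 3 reads or fewer were set to 3. The collagens lie wholly above 0 with a median of 2.33, while the collagen IV partners spread on both sides with a median of 0.15.

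Among the remaining collagen genes, 28 of 33 with reads had a mean of at least 10, and 15 of these 28 reached a ratio of 2 towards the limbus and 1 towards the cornea, with a median log2 ratio of 1.35. The fibrillar collagens had 7 of 11 towards the limbus and 0 towards the cornea, with a median of 1.44. Col3a1, a fibrillar collagen of vessel walls and loose connective tissue, had 106 and 3124 reads (4.98) and Col27a1 had 83 and 391 (2.33). Col5a2 had 2919 and 2107 reads (-0.37) and Col11a1 189 and 145 (-0.29, interval -0.61 to 0.03). The collagen VI, fibril-associated and transmembrane list had 7 of 15 towards the limbus and 1 of 15 towards the cornea, with a median of 0.95. Col14a1 had 48 and 548 reads (3.61) and Col16a1 560 and 2451 (2.23). Col17a1, the hemidesmosome collagen of basal epithelium, had 65707 and 24775 (-1.31), and Col6a3 had 3748 and 3191, where the log2 ratio of -0.14 turned to 0.07 when libraries were scaled by total reads. A difference towards the limbus was thus not particular to the 10 members.

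Markers of vessel endothelium and skeletal muscle differed in the same direction. Beside the counts in the lists here and below, 18.0% of all genes reached a ratio of 2 towards the limbus and 8.88% towards the cornea. All 12 markers of vessel endothelium had a mean of at least 10, and 11 reached a ratio of 2 towards the limbus, with a median log2 ratio of 6.68 and summed normalized reads of 253 (cornea) and 5616 (limbus). Pecam1, a junction protein of endothelial cells, had 6 and 831 reads, and Plvap, a protein of fenestrae, had 3 and 914. All 10 skeletal muscle markers reached the ratio, with a median of 7.23 and summed normalized reads of 494 and 13887, and the fast myosin heavy chain gene Myh4 had 8 and 3126 reads. The ratios of these sums, 22.2 for vessel endothelium and 28.1 for skeletal muscle, rest largely on 1 gene per list in the cornea. Kdr, a receptor of vascular endothelial growth factor, gave 164 of the 253 corneal normalized reads and 287 of the 5616 limbal ones. Tnni2, a fast troponin I, gave 396 of the 494 and 1722 of the 13887. Both were chosen after their values were seen.

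The sums of the other lists differed by smaller ratios, although each median log2 ratio given in this paragraph was above 2. Pericyte and smooth muscle markers had 10 of 11 at a ratio of 2 towards the limbus (median 4.29), with summed normalized reads of 5954 and 7165, of which Notch3 gave 5567 and 3462. Schwann cell markers had 7 of 10 (median 2.03), with sums of 6576 and 9846, of which Mbp gave 4193 and 5680. Melanocyte and pigment epithelium markers had 6 of 8 (median 2.38), with sums of 679 and 2314. Macrophage markers had 9 of 10 (median 2.64), with sums of 974 and 4256. Lens markers, whose cells lie on a capsule of collagen IV, had 8 of 9 (median 3.36), with summed normalized reads of 1330 and 11957. The crystallin Cryaa had 468 and 5423 reads. Trabecular meshwork and ciliary body markers had 6 of 9 (median 3.10), with sums of 6178 and 12520. Of these sums Angptl7, which is also in the keratocyte list, gave 5265 and 3727. Conjunctival and limbal epithelium markers had 8 of 9 (median 3.47), with sums of 131998 and 706576.

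By median log2 ratio, the stroma and epithelium lists of the cornea did not share this direction. Keratocyte markers had 2 of 8 at a ratio of 2 towards the limbus and 2 of 8 towards the cornea. Their median log2 ratio was 0.03. The keratocyte sum was nevertheless higher in the limbus, at 64704 and 78204 normalized reads (ratio 1.21). Of these Dcn gave 29807 and 46346 and Fmod 690 and 13123. Kera, named after its values were seen, went the other way with 11723 and 1471. Corneal epithelium markers had 2 of 10 towards the limbus and 5 of 10 towards the cornea. Their median was -0.96 and the ratio of their sums 0.42. The counts towards the limbus in these 2 lists lay near the 18.0% of all genes. Markers at 0 reads were Des and Birc7, each in the cornea only. The part of any of these cell types in the collagen differences was not tested.

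**Figure D5:**
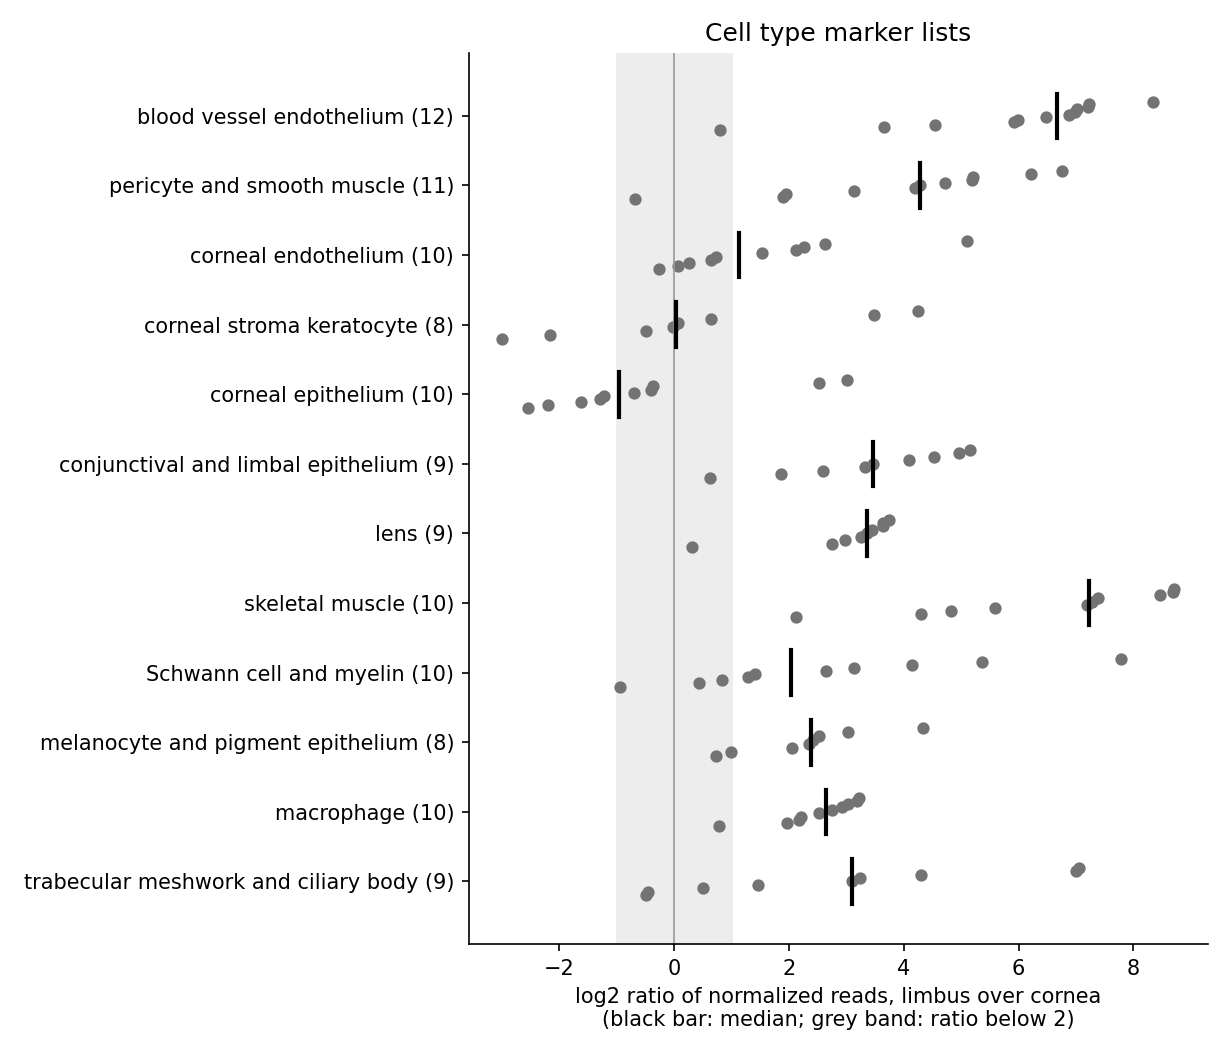
Log2 ratio of limbus over cornea for each gene of the 12 cell type lists with a mean of at least 10, with the median of each list as a line and libraries at 3 reads or fewer set to 3. Skeletal muscle (7.23) and vessel endothelium (6.68) have the highest medians, and corneal epithelium (-0.96) the lowest.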

How the data were processed

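RNA from pooled limbal rims and corneal buttons was sequenced from stranded total RNA libraries. Per the study's methods the authors mapped reads to GRCm38 (mm10) with CLC Genomics Workbench and normalized by trimmed mean of M-values. The table they deposited has 40904 rows, of which 17484 name no gene and were left out. The authors made its mean column, a signal, by dividing the reads of each library by a size factor and averaging both libraries, as deposited. The other columns hold the authors' comparison, which are log2 changes, their errors, p-values, adjusted p-values and a note on direction. The deposited log2 values and errors served only to decide which whole reads in each library gave the mean, the direction came from the note, and none of these values is printed. The column of accession numbers did not pair with the genes and was not used.

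Whole reads were recovered with 109 cornea reads worth 102 limbus reads. The mean alone allowed 1 pair of read numbers for 6143 of 17442 genes with reads and several for 11299, all 10 members included (3 to 55 pairs each). The pair whose modelled standard error was nearest the deposited one was taken, it met it to within 0.001 for 11298 of these, and for 0 genes did the next pair miss by less than 10 times as much. The step was also run on data made with its own model for the 13932 genes whose mean was 10 or more. There it found all 13932 read numbers, and all 200 genes made to change had their direction. Whether the reads recovered from the deposited table equal those the authors counted was not tested. The recovered reads rest on the comparison columns and are reconstructions.

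Ratios used normalized reads, with a library at 3 reads or fewer set to 3, and exact Clopper-Pearson 95% intervals. Intervals of different genes were compared by overlap, which is no test. A ratio of 2 or more counted as called, among genes whose mean was 10 or more. Exon lengths and coding sequences were from the GENCODE annotation of GRCm38, and promoter windows from RefSeq. Members and lists were chosen with earlier results of these data known. Named list genes were, with a mean of at least 50, up to 2 with the largest ratio to either side, and of the cell type lists the most abundant limbal genes (3 each, of which some are named). Of the 209 listed genes, 7 were found under an older symbol. The alternatives were total reads, trimmed mean of M-values, a pseudocount of 1, a mean of at least 50, no filter, a ratio of 1.5 and coding length. Python 3.11.15, numpy 2.4.6, pandas 2.3.3, scipy 1.17.1 and Biopython 1.88 were used.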

Additional observations from a re-analysis of the deposited data

How the results depend on the processing

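With libraries scaled by total reads every log2 ratio rose by 0.21, so the median of the members was 2.54 beside 0.17 for all genes, and 4 members left their counting interval (Col4a1 3.06, Col4a2 3.13, Col4a5 0.80 and Col8a2 2.01). Under trimmed mean of M-values and under a pseudocount of 1 all 10 stayed within it, and under all 3 of these settings 0 of the 10 changed sign. The count of 8 of 10 members at a ratio of at least 2 was also 8 under these settings, a mean of at least 50 and no filter, and 10 at a ratio of 1.5. The share of all genes at the same setting was 20.3% with total reads, 18.2% with trimmed mean of M-values, 17.8% with the pseudocount, 11.9% with a mean of at least 50, 18.5% with no filter and 23.8% at a ratio of 1.5. Against these shares, the called genes of the 6 lists, other collagens included, numbered 35 of 79 in the main setting. They numbered 43 of 79 with total reads, 25 of 65 with a mean of at least 50 and 47 of 79 at a ratio of 1.5. With a mean of at least 50, where 11.9% of all genes were called, the receptors gave 2 of 7, the proteases 3 of 8 and the collagen VI list 3 of 10. With coding length in place of exon length, Col8a1 moved from place 6 to 3 in the cornea and from 7 to 4 in the limbus, Col4a1 to Col4a2 per kilobase in the limbus turned from 0.99 to 1.14, Col4a5 to Col4a6 became 1.02, and Col8a2 to Col8a1 became 6.44 in the cornea and 7.16 in the limbus. Col18a1 to Col15a1 per kilobase in the limbus was 1.94 against 2.28. Reading by the mean alone gave no value for any member, since each mean allows several pairs. No paired analysis was possible because the table holds no value per numbered sample, and leaving out replicates was not possible for the same reason. Col15a1 and Cd93 rest on 4 and 3 corneal reads.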
